A study of Homo sapiens with 6 samples.

Results

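The genes of cytosolic DNA sensing were examined in PC9 cells with and without knockdown of RBM10. By symbol, 8 genes were chosen: the sensors CGAS and IFI16, the adaptor STING1, the kinases TBK1 and IKBKE, the transcription factor IRF3, and TREX1 and SAMHD1, which limit the nucleic acid that reaches the sensors. All 8 were listed among the 16306 genes of the deposited table, and all 8 were among the 12620 genes that passed the filter on low counts and were tested. PC9 is a human lung adenocarcinoma line with an exon 19 deletion in EGFR, and every library of both groups carried this background. The sh-NC group was 3 libraries from cells given a control shRNA, and the shRBM10 group was 3 libraries from cells given an shRNA against RBM10, an RNA-binding regulator of splicing. The sources used here do not say which RBM10 shRNA was used, or whether the 3 libraries of a group came from separate cultures, so the p-values measure only the spread between these libraries, which may be technical. One shRBM10 column matched the title of shRBM10 replicate 1 (library A). The other 2 columns could be matched to the group only and are called libraries B and C. No agonist, DNA stimulus or interferon was named for either group.

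In the known pathway, cGAS binds DNA in the cytosol and makes the messenger cGAMP, which binds STING on the endoplasmic reticulum. STING then moves to the Golgi and recruits TBK1 and the related kinase IKKε (the product of IKBKE), and TBK1 phosphorylates IRF3, which enters the nucleus and switches on interferon and chemokine genes. IFI16 is a further DNA sensor that is itself interferon-inducible, TREX1 is an exonuclease that degrades cytosolic DNA, and SAMHD1 is a dNTP hydrolase that also limits the release of DNA from stalled replication forks. The pathway is regulated largely through protein modification and movement, which RNA counts do not measure, and STING1 can be silenced in lung adenocarcinoma.

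Total counts per library were 18181902 to 18864241 in sh-NC and 16606401 to 18526158 in shRBM10. RBM10 itself (chrX:47144869-47186813, plus strand, on GRCh38 as are all positions given) had normalized counts, which are counts scaled to a common library size, of 1431, 1183 and 1469 in sh-NC and of 537, 515 and 672 in shRBM10. The groups did not overlap, and the log2 fold change was -1.24 (SE 0.23, edgeR adjusted p = 0.10). Library sh-NC replicate 2 stood apart: its correlation across genes with sh-NC replicates 1 and 3 was 0.940 and 0.942, against 0.993 between those 2, and its EGFR count was 1890 against 11026 to 14601 in the other libraries. Its TMM scaling factor was 0.738, against 1.03 to 1.08 in the other libraries, so its counts were raised the most by the scaling. By the same correlation, shRBM10 library C was closer to sh-NC replicates 1 and 3 (0.982 with each) than to libraries A (0.947) and B (0.969). The epithelial markers fitted the label, with EPCAM at 4561 to 6566 counts, while NKX2-1, a lung lineage marker, had 0 to 2 counts. Of the 8 immune markers 6 were listed with summed counts of 2099 to 2468 for sh-NC and of 1832.5 to 2473 for shRBM10, of which CD68 alone gave 1795 to 2442 and the leukocyte marker PTPRC 0 to 7. Of the 7 stromal markers 6 were listed, with summed counts of 116 to 344 for sh-NC and of 153 to 280 for shRBM10, and COL1A2 had 0 to 2. Of the 4 stromal markers tested, 3 had a negative log2 fold change and 1 a positive one, with a median of -0.84. At an unadjusted p under 0.05 by edgeR, 2 were lower (8.6% of all genes tested). As many did not overlap on normalized counts in that direction (16.2%). With the GC trend of each library removed, 2 were lower (6.11%) and 1 was higher (12.4%) at that limit. The endothelial cadherin CDH5, for example, had 177, 61 and 176 counts in the controls and 40, 62 and 57 with shRBM10. COL1A1 had 113, 28 and 106 counts against 97, 134 and 185, and the part of either gene in the results was not tested. The labels describe an RNA extraction from retinas, so retinal markers were counted: the 4 listed in the table summed to at most 3.31 counts in sh-NC and 5.22 in shRBM10.

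IRF3 was by far the most abundant of the 8 transcripts per unit of length in the control cells. On the authors' TPM scale, which corrects for transcript length and for depth, the mean level in sh-NC was 194 ± 33.5 for IRF3, 10.3 ± 3.23 for STING1, 9.48 ± 2.69 for CGAS and 5.19 ± 1.51 for IKBKE (SD, n = 3). TBK1 had a mean level of 3.93 ± 2.54 TPM, TREX1 of 3.89 ± 0.75, SAMHD1 of 3.12 ± 1.32 and IFI16 of 1.43 ± 0.76. The ranges of neighbours in this order did not overlap for IRF3 above STING1 and for CGAS above IKBKE, and overlapped for every other neighbouring pair. These ranges and SDs include sh-NC replicate 2, where each of the 8 genes had its lowest TPM among the controls. STING1, highest in that library on normalized counts, had 6.54 TPM there against 12.11 and 12.15. Within each library, however, the upper gene of a pair was the higher in 3 of 3 libraries for 5 of the 7 pairs, and in 2 of 3 for TBK1 above TREX1 and TREX1 above SAMHD1. Both the sensor CGAS and the adaptor STING1 were therefore present as RNA in these cells.

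With RBM10 knocked down, the 8 genes did not move together. On normalized counts CGAS, STING1 and IRF3 were lower in each shRBM10 library than in any control library. TBK1, IKBKE, IFI16 and SAMHD1 were higher in each shRBM10 library than in any control library, and TREX1 overlapped between the groups. None of the 8 was called by edgeR at an adjusted p under 0.05 with an absolute log2 fold change over 1, a rule that called 2 of all 12620 genes (0.0158%). At an unadjusted p under 0.05, 3 of the 8 were higher (IFI16, SAMHD1 and TBK1; 15.7% of all genes tested) and 1 was lower (CGAS; 8.6%). With the fold limit added, 2 were higher (IFI16 and TBK1; 10.1% of all genes) and 0 lower (1.53%). At an adjusted p under 0.05 by DESeq2, 2 of the 8 were higher (IFI16 and SAMHD1; 3.8% of the 12374 genes with an adjusted p) and 0 lower (1.43%), and with the fold limit IFI16 alone was called (4.64%). Groups without overlap were found for 4 of the 8 in the higher direction (13.8% of all genes) and for 3 in the lower direction (16.2%). An exact two-sided permutation test of 3 libraries against 3 cannot go below p = 0.1, which 7 of the 8 reached and TREX1 did not (p = 0.9). The number of lower genes rested on the libraries kept. None of the 8 was lower at an unadjusted p under 0.05 when sh-NC replicate 1 or 3, or shRBM10 replicate 1 or library B, was left out, while 2 were lower with sh-NC replicate 2 left out, and 3 with shRBM10 library C left out. Over all genes tested the number lower moved in the same way: 1085 with all libraries, 384 to 891 in the 4 fits with none of the 8, 1628 without sh-NC replicate 2 and 2023 without library C. As these are RNA pools of whole cultures, fewer cells that express a gene and less RNA per cell cannot be told apart.

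**Figure D1:**
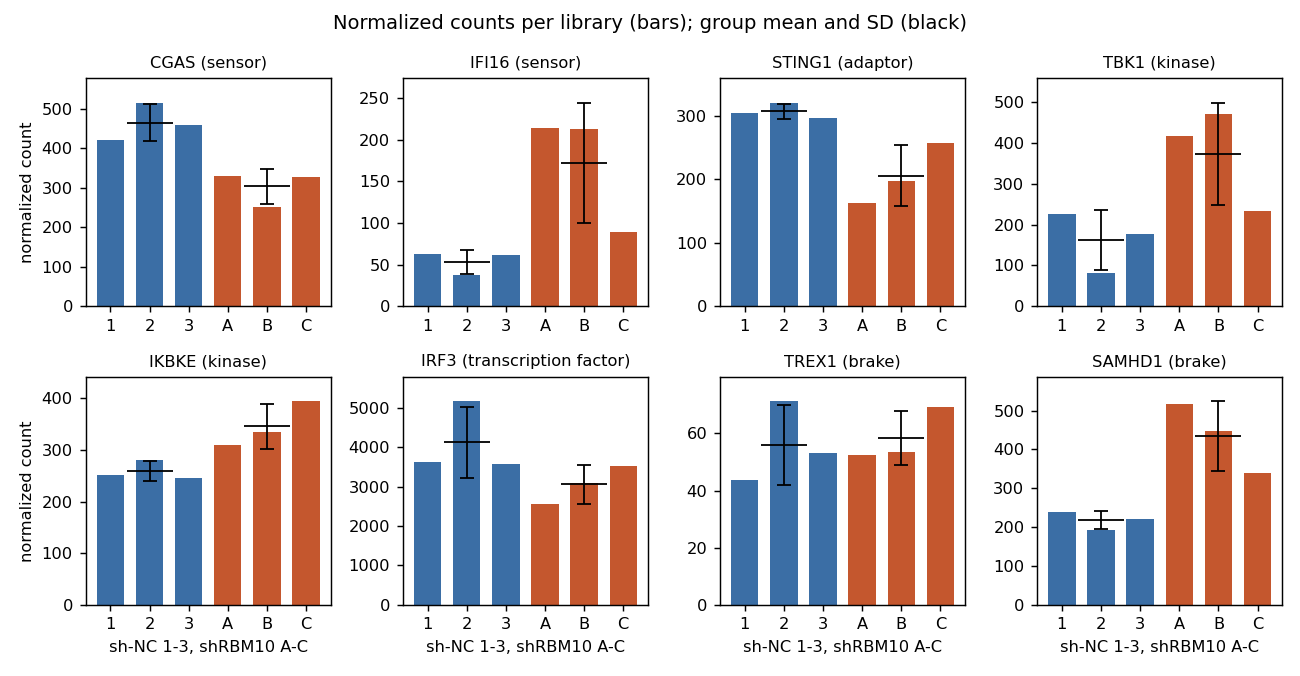
Normalized counts (vertical axis, own scale from 0 in each panel) of the 8 genes in sh-NC replicates 1 to 3 (blue) and shRBM10 libraries A to C (orange), with the group mean and SD in black. CGAS, STING1 and IRF3 are lower and IFI16, TBK1, IKBKE and SAMHD1 are higher in all 3 orange bars, while TREX1 overlaps.

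The 2 sensors differed in opposite directions. CGAS (Entrez 115004, chr6:73413515-73452276, minus strand), which encodes the enzyme that makes cGAMP, had normalized counts of 422, 515 and 458 in sh-NC and of 331, 251 and 328 in shRBM10. All 3 shRBM10 libraries were below the lowest sh-NC library. Means were 465 ± 46.9 and 303 ± 45.1 (SD, n = 3), a log2 fold change of -0.62 (SE 0.25, 95% confidence interval -1.18 to -0.05, unadjusted p = 0.035 and adjusted p = 0.187 by edgeR). IFI16 (Entrez 3428, chr1:158999968-159055155, plus strand) had normalized counts of 62.6, 37.0 and 61.4 in sh-NC and of 215, 214 and 89.3 in shRBM10. Libraries A and B were high and alike, and library C lay nearer to the controls but still above each of them. The fold difference was 3.19, the largest among the 8 genes, with a log2 fold change of 1.67 (SE 0.41, interval 0.77 to 2.58, edgeR adjusted p = 0.137). DESeq2 gave an adjusted p of 0.00944 for IFI16.

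STING1, formerly TMEM173 (Entrez 340061, chr5:139475534-139482935, minus strand), encodes the membrane protein that receives cGAMP. Its normalized counts were 305, 320 and 297 in sh-NC, the tightest control group of the 8 genes relative to its mean, and 162, 197 and 257 in shRBM10. Library A was lowest, library C was nearest to the controls, and the groups did not overlap. Before scaling the counts were 336, 234 and 329 against 158, 206 and 268, where library C exceeded sh-NC replicate 2. The means were 307 ± 12 and 206 ± 48.1 (SD, n = 3). The log2 fold change was -0.58 (SE 0.28, interval -1.20 to 0.04, edgeR adjusted p = 0.223).

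Of the 2 kinases, TBK1 had the larger log2 fold change and the larger spread with TMM scaling, whereas with the GC trend removed IKBKE had the larger one (0.82 against 0.63). TBK1 (Entrez 29110, chr12:64451880-64502108, plus strand), the main kinase of IRF3, had normalized counts of 226, 80.8 and 178 in sh-NC and of 416, 471 and 232 in shRBM10. The gap between the groups was narrow, as the lowest shRBM10 library and the highest sh-NC library were close. Before scaling they were in the other order, with 249 counts in sh-NC replicate 1 and 242 in library C. The log2 fold change was 1.20 (SE 0.42, interval 0.27 to 2.13, edgeR adjusted p = 0.166), and it was 0.80 without sh-NC replicate 2, the lowest library. IKBKE (Entrez 9641, chr1:206470476-206496889, plus strand), the TBK1-related kinase, had normalized counts of 251, 281 and 245 in sh-NC and of 309, 334 and 394 in shRBM10. Its groups did not overlap, with means of 259 ± 18.9 and 346 ± 43.5 (SD, n = 3). The log2 fold change was 0.42 (SE 0.25, interval -0.15 to 0.98, edgeR adjusted p = 0.308).

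IRF3 (Entrez 3661, chr19:49659569-49665875, minus strand), the transcription factor at the end of the pathway, had normalized counts of 3637, 5161 and 3572 in sh-NC and of 2551, 3090 and 3524 in shRBM10. The highest shRBM10 library was just under the lowest control, and sh-NC replicate 2 was well above the rest. The log2 fold change was -0.43 (SE 0.25, interval -0.98 to 0.12, edgeR adjusted p = 0.283). Its gene overlaps BCL2L12 on the opposite strand (chr19:49665142-49673916), whose log2 fold change was -0.56, and the sources used here do not say whether the counting used strand, so IRF3 counts are uncertain by the reads of the shared stretch.

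The 2 genes that limit nucleic acid differed from each other. TREX1 (Entrez 11277, chr3:48465811-48467645, plus strand) had normalized counts of 43.5, 71.2 and 53.2 in sh-NC and of 52.4, 53.7 and 69.2 in shRBM10. The groups overlapped fully, and the log2 fold change was 0.07 (SE 0.32, interval -0.64 to 0.78, edgeR adjusted p = 0.899). Its sign turned when sh-NC replicate 1 was left out (-0.09) and also on leaving out shRBM10 library C (-0.11). TREX1 lies inside the annotated span of ATRIP on the same strand (chr3:48446710-48467645, log2 fold change -0.58), and its counts were fractional, so its value depends on how shared reads were divided. SAMHD1 (Entrez 25939, chr20:36889773-36951901, minus strand) had normalized counts of 239, 193 and 221 in sh-NC and of 516, 447 and 339 in shRBM10. Every shRBM10 library exceeded every control. The mean was 1.99-fold higher, 434 ± 89.4 against 218 ± 23.3 (SD, n = 3), with a log2 fold change of 0.99 (SE 0.27, interval 0.38 to 1.60, edgeR adjusted p = 0.153). DESeq2 gave an adjusted p of 0.0353 for SAMHD1.

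**Figure D2:**
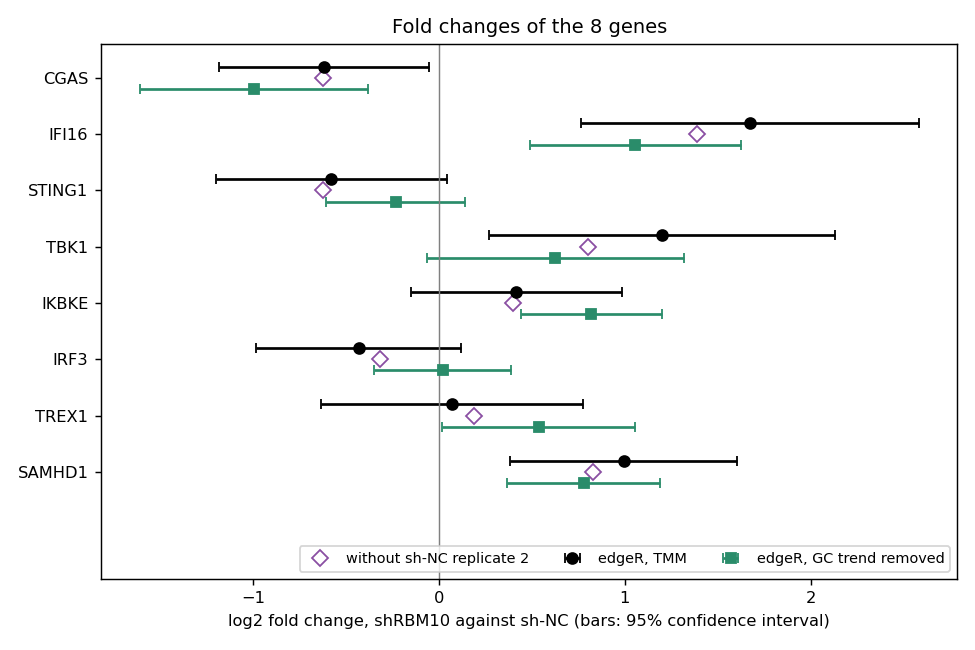
Log2 fold change (horizontal axis) of shRBM10 against sh-NC for the 8 genes, from edgeR with TMM (black circles) and with the GC trend of each library removed (green squares), both with 95% confidence intervals, and without sh-NC replicate 2 (open diamonds, no interval). IFI16 and SAMHD1 stay above 0 and CGAS below 0 with both intervals, while IRF3 moves from -0.43 to 0.02.

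GC content of the transcripts went with the fold changes of all genes, and the 8 genes ranged from 39.3% to 63.1%. Over the 12575 genes tested with a known GC content, the median log2 fold change was 0.76 in transcripts under 40% GC (1685 genes), 0.61 at 40 to 45%, 0.15 at 45 to 50%, -0.15 at 50 to 55%, -0.28 at 55 to 60% and -0.34 over 60% (2225 genes). The libraries differed in this: in transcripts under 40% GC the median deviation from the mean over libraries, on the log2 scale, was -0.19, -0.68 and -0.21 for the 3 control libraries in order, against 0.82, 0.52 and -0.21 for libraries A, B and C. Library C thus resembled sh-NC replicates 1 and 3. TBK1, IFI16, CGAS and SAMHD1 have the lowest GC content of the 8 genes, at 39.3%, 40.3%, 43.6% and 46.0%. STING1 (56.8%), IKBKE (58.7%), IRF3 (61.2%) and TREX1 (63.1%) are GC-rich. CGAS and IKBKE differed from the controls against the direction of their GC class. IRF3 was close to the median of its class, and TREX1, at 0.07, was above it.

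Removing the GC trend of each library therefore moved the 8 genes unequally. For CGAS it widened the log2 fold change to -1.0 (SE 0.26), and GC-corrected counts were 462, 647 and 504 in sh-NC against 241, 206 and 361 in shRBM10. For IKBKE the log2 fold change became 0.82 (SE 0.16), with corrected counts of 229, 222 and 223 in sh-NC against 424, 411 and 357 in shRBM10, groups that were both tight and far apart. The edgeR adjusted p for IKBKE was 0.104, and 0.0426 with length trends removed as well. IFI16 kept a log2 fold change of 1.06 (SE 0.24) and SAMHD1 of 0.78 (SE 0.17), both without overlap. TBK1 came down to 0.63 (SE 0.29) and STING1 to -0.23 (SE 0.16), again without overlap. IRF3 came to 0.02 (SE 0.16), with overlap, and TREX1 to 0.54 (SE 0.22), above the controls in all 3 libraries. On this scale 4 of the 8 (IKBKE, IFI16, SAMHD1 and TREX1) were higher at an unadjusted p under 0.05 (12.4% of all genes) and 1, CGAS, was lower (6.11%), and none of the 8 passed an adjusted p under 0.05, as 0.0713% of all genes did. Groups without overlap were 5 in the higher direction (19.3% of all genes) and 2 in the lower (10.6%). The median of all genes was 0.10 after this correction, against 0.03 before it. Whether GC content had a part in any of these differences was not tested.

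**Figure D3:**
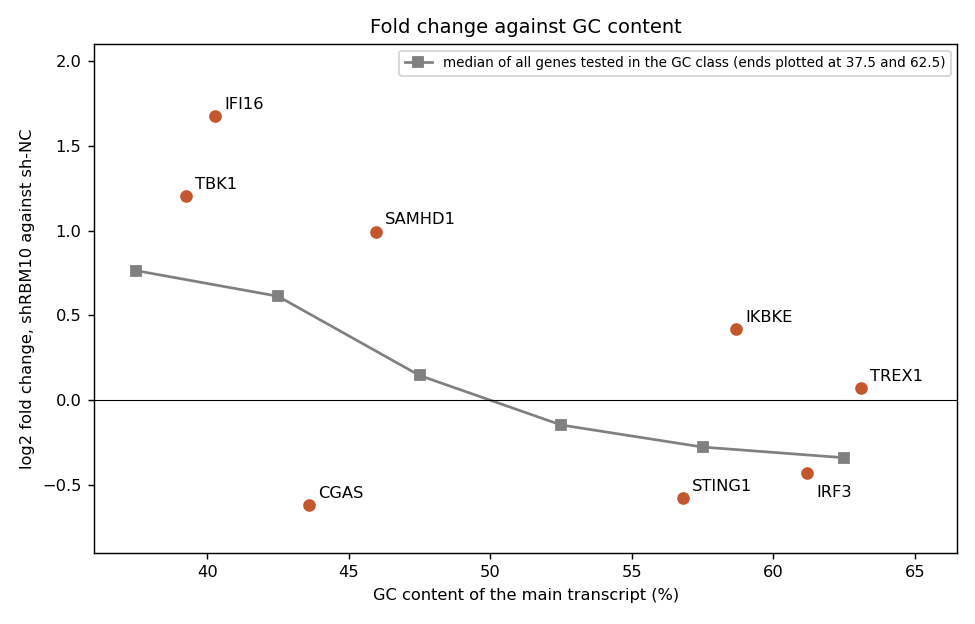
Log2 fold change of shRBM10 against sh-NC (vertical axis) of the 8 genes (orange points) against the GC content of their main transcript in percent (horizontal axis), with the median of all genes tested in each GC class in grey. CGAS lies below the grey line where that line is above 0, and IKBKE lies above it where the line is below 0.

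As RBM10 regulates splicing, the transcripts of the 8 genes were compared too. The deposited transcript table lists 1 RefSeq transcript each for CGAS, TBK1 and TREX1, and SAMHD1 was almost entirely NM_015474 (98.3% of its counts in either group), so no usage could be compared for these. Of the 4 genes tested with edgeR's diffSpliceDGE, none passed an adjusted Simes p of 0.05 (0.0975% of all 8205 genes tested did), and 1, IRF3, had an unadjusted p under 0.05 (2.66%). For STING1 the share of NM_198282 was 64.8%, 55.2% and 59.0% in sh-NC and 53.4%, 35.5% and 52.4% in shRBM10, without overlap, while NM_001301738 took 18.1 ± 1.68% and 27.9 ± 9.08% (SD, n = 3), and the gene's unadjusted usage p was 0.871. For IFI16, NM_005531 took 69.5 ± 10.7% in sh-NC and 49.4 ± 2.28% in shRBM10, and NM_001376587 took 6.61 ± 11.4% and 36.6 ± 10.5% (SD, n = 3). With only 27 to 69 counts of IFI16 per control library these shares are coarse, and its unadjusted usage p was 0.449. That p depended on single libraries: it was 0.00547 when sh-NC replicate 1 was left out (adjusted p 0.531 by edgeR) and 0.926 when shRBM10 library B was left out. For IKBKE, NM_001193322 took 9.96%, 16.2% and 29.4% in sh-NC and 8.11%, 6.22% and 5.16% in shRBM10, also without overlap (unadjusted usage p for the gene 0.982). The main IKBKE form, NM_014002, took 56.1 ± 12.5% in sh-NC and 67.4 ± 8.18% in shRBM10 (SD, n = 3), with overlap.

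IRF3 has 20 transcripts in the table, of which 17 entered the usage test (unadjusted p = 0.00219, edgeR adjusted p = 0.270). Its 2 main forms had similar mean shares in both groups: NM_001571 took 30.0 ± 3.89% in sh-NC and 28.7 ± 3.68% in shRBM10, and XM_017026766 took 28.1 ± 1.95% and 26 ± 3.00% (SD, n = 3). The small p came from minor forms, singled out here after their values were seen. NM_001197128 had estimated counts of 92.49, 68.8 and 71.65 in sh-NC and was at 0 in all 3 shRBM10 libraries, whereas XM_006723197 had 0, 1.3 and 0 in sh-NC and 74.55, 35.84 and 18.91 in shRBM10. With transcripts required to have 10 counts in every library of a group, the adjusted p for IRF3 was 0.0396, and 2.04% of all genes passed. Under the first filter, leaving out any single library gave an edgeR adjusted p of 0.512 or more. Counts of such similar forms are estimates of how shared reads divide.

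Promoters of 3 of the genes that were higher in shRBM10 are shown because interferon-stimulated genes carry a recognition element (ISRE) for IRF factors there. RefSeq windows on GRCh38.p14, from 250 bases before to 50 bases after a transcript start, were given for 5 of the 8 genes: IFI16 (2 windows), IKBKE, TREX1, TBK1 and SAMHD1. No window was given for CGAS, STING1 and IRF3. The core ISRE was searched on both strands as GAAA, any 2 bases and GAAA again. It occurs in 3.57% of 35116 windows and in 0 of the 6 windows of the 8 genes. Of the windows of interferon and chemokine genes it occurs in 13 of 21, which belong to 11 of 17 genes. A shorter spacing, GAAANGAAA, added after the windows had been looked at and able to overlap the first motif, occurs in 3.12% of all windows and in 1 of the 6, the second IFI16 window. Among the interferon and chemokine genes it occurs in 5 of 21 windows, which belong to 4 of 17 genes. The windows printed are that IFI16 window, chr1:159009657-159009956 on the plus strand, the TBK1 window, chr12:64451870-64452169 on the plus strand, the SAMHD1 window, chr20:36951659-36951958 on the minus strand, and for comparison the window of the interferon-stimulated gene ISG15, chr1:1013247-1013546 on the plus strand. Capitals mark GAAANGAAA in IFI16 and 2 overlapping matches of the core ISRE in ISG15, and the windows without capitals hold no match.
IFI16: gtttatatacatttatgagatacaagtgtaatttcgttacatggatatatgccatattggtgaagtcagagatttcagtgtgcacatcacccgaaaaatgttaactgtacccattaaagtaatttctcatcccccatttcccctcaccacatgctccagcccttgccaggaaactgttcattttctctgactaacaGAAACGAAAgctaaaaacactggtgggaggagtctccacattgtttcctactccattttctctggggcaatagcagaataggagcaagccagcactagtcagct
TBK1: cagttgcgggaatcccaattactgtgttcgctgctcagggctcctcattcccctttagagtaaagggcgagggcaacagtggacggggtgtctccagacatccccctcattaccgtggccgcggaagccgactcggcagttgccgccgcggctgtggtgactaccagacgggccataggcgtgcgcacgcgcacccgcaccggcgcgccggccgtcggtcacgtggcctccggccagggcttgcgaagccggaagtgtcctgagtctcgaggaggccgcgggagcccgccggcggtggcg
SAMHD1: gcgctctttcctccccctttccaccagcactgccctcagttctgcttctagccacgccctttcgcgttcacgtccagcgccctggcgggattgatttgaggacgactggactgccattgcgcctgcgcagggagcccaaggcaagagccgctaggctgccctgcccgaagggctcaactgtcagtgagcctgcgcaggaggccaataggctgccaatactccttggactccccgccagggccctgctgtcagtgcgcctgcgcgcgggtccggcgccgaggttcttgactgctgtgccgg
ISG15: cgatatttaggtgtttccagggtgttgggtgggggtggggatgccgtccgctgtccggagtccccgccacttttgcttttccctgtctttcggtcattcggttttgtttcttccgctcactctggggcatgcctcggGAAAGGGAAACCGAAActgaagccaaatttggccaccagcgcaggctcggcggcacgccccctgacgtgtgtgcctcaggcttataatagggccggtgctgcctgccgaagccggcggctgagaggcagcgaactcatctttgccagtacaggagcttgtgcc
A match is a string of letters and not a measured site, and a window without one says nothing of elements elsewhere in the gene. The TBK1 and SAMHD1 windows are GC-rich (68.3% and 65.7%), the IFI16 window is not (41.7%).

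The genes whose pattern over the 6 libraries was most like that of STING1, by the root mean square difference of centred log2 CPM values, were MISP (0.026), REEP4 (0.032) and PKP3 (0.032). For CGAS they were TSC22D1 (0.050), DUSP5 (0.062) and NDE1 (0.066). The 3 genes nearest to STING1 are GC-rich (62.2 to 66.8%), as is STING1.

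The rest of the pathway was followed through 6 lists, of which 116 genes were tested. Regulators of cGAS and carriers of cGAMP were evenly split, with 8 of 16 higher and a median log2 fold change of -0.01, beside 0.03 for all genes. The shares of all genes to set beside the counts that follow are the same as above, 15.7% higher and 8.6% lower at an unadjusted p under 0.05, and 12.4% and 6.11% with the GC trend removed. At an unadjusted p under 0.05, 3 were higher and 1 was lower. The higher ones were TRIM38, a SUMO ligase that acts on cGAS (1.04), SENP7, a SUMO protease (0.96), and ENPP1, the hydrolase of extracellular cGAMP (1.34), and the lower one was SLC19A1, a folate carrier that imports cGAMP (-0.66). TRIM38 and SLC19A1 did not overlap between the groups. ENPP1 and SENP7 did, since library C was within the range of the controls. With the GC trend removed, 0 of these 16 were higher and 1 was lower at an unadjusted p under 0.05. The lower one was then LRRC8C of the same list (-1.03), and SLC19A1 had -0.19 and did not pass. TRIM38 had 0.39, SENP7 0.45 and ENPP1 0.78.

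Genes of STING traffic and turnover gave 9 higher and 14 lower of 23, with a median of -0.07. Only CYLD, a deubiquitinase that acts on STING, and AP1G1, a subunit of the clathrin adaptor that carries STING from the Golgi, were higher at an unadjusted p under 0.05, with log2 fold changes of 1.43 and 0.78, and none was lower. CYLD did not overlap between the groups, and AP1G1 did, with library C within the range of the controls. With the GC trend removed 2 were higher and 2 lower, CYLD had a log2 fold change of 0.90, and AP1G1 had 0.28 and did not pass. The next by p were YIPF5 (0.67) and TMED2 (0.52), both of early secretory traffic, which did not pass this limit. Of nucleases and genes of nuclear envelope repair, 8 of 17 were higher and 9 lower, with a median of -0.04, and 3 passed in each direction at an unadjusted p under 0.05, or 2 higher and 1 lower with the GC trend removed. VPS4B, an ESCRT ATPase, had a log2 fold change of 1.14, PNPT1, which degrades mitochondrial RNA, of 1.21, the DNA damage kinase ATM of 1.33 and the nuclease subunit MUS81 of -0.57. VPS4B and MUS81 did not overlap between the groups, while for PNPT1 and ATM library C was within the range of the controls. With the GC trend removed these values were 0.55 for VPS4B, 0.58 for PNPT1, 0.68 for ATM and -0.14 for MUS81.

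Other DNA sensors had a median of 0.56, with 5 of 16 higher and 1 lower at an unadjusted p under 0.05. The helicases DHX9 (1.65) and DHX36 (1.32) and the Ku80 gene XRCC5 (1.16) were high in libraries A and B, while library C was within the range of the controls or, for XRCC5, just under it. DHX9, for example, had normalized counts of 794, 427 and 717 in sh-NC and of 3000, 2360 and 751 in shRBM10. The Ku70 gene XRCC6 had the opposite sign (-0.68) without overlap. With the GC trend removed the median of this list was 0.11, and 1 was higher and 2 were lower. DHX9 was the higher one (1.20) and XRCC6 was among the lower ones (-0.61). DHX36 (0.72) and XRCC5 (0.56) then did not pass. The sensors AIM2, MNDA, PYHIN1 and ZBP1 were not among the genes tested.

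Adaptors of TBK1 and IRF3 and genes of NF-κB gave 18 higher and 8 lower of 26, a median of 0.25, with 6 higher and 3 lower at an unadjusted p under 0.05. Groups without overlap were 6 in the higher direction (13.8% of all genes) and 4 in the lower (16.2%). The 4 genes with the smallest p, named next, were among the higher ones. OPTN, an autophagy receptor and substrate of TBK1, had 288 ± 52.1 normalized counts in sh-NC and 757 ± 179 in shRBM10 (SD, n = 3), a log2 fold change of 1.39 (edgeR adjusted p = 0.116). TAX1BP1, a related receptor, had a log2 fold change of 1.37, the TBK1 adaptor TANK of 1.31 and the kinase MAP3K7 (TAK1) of 1.28. With the GC trend removed, 9 of the 26 were higher and 0 lower at an unadjusted p under 0.05. The log2 fold changes were then 1.05 for OPTN, 0.78 for TAX1BP1, 0.74 for TANK and 0.64 for MAP3K7.

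**Figure D4:**
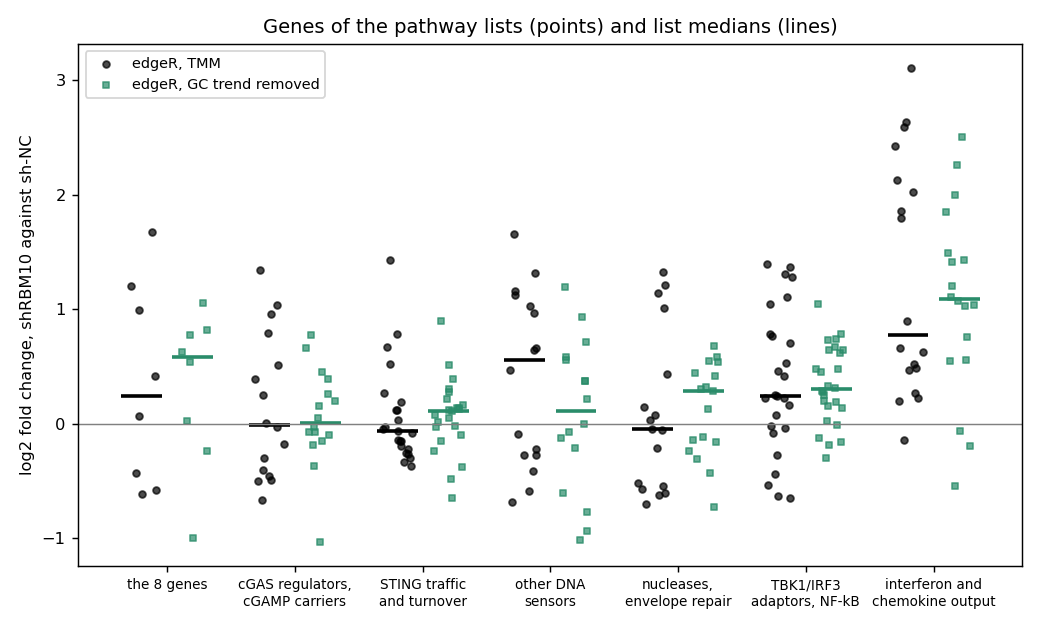
Log2 fold change of shRBM10 against sh-NC (vertical axis) of each gene tested in the 8 genes and in the 6 pathway lists (horizontal axis), from edgeR with TMM (black) and with the GC trend removed (green), with horizontal lines at the medians. The interferon and chemokine outputs are the highest list on both scales (medians 0.78 and 1.09), and the other lists spread around lower medians.

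The outputs of the pathway, interferon and chemokine genes, were higher as a list. Of the 18 tested, 17 had a positive log2 fold change, as did 6514 of all 12620 genes tested. The list had a median of 0.78, with 9 genes higher and 0 lower at an unadjusted p under 0.05. These genes also respond to RNA sensing and to interferon itself, so the list is not particular to DNA sensing. With the GC trend removed the median was 1.09 and 14 were higher, and without sh-NC replicate 2 the median was 1.06. IL6, TNF and CXCL8, also in this list, had log2 fold changes of 0.23, 0.27 and -0.14, each with overlap. With the GC trend removed they had -0.19, 0.55 and -0.54. IFI44, IFIT1, IFIT2 and RSAD2, which are interferon-induced antiviral genes, had log2 fold changes of 2.02, 2.13, 2.59 and 3.11, all without overlap. With the GC trend removed these came down to 1.43, 1.49, 2.00 and 2.51, again without overlap. The chemokine CXCL10 had normalized counts of 31.7, 65.7 and 32.5 in sh-NC and of 158, 168 and 120 in shRBM10. Its log2 fold change was 1.80 (edgeR adjusted p = 0.118), and 1.21 with the GC trend removed.

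The direct IRF3 target IFNB1, which encodes interferon beta, was detected in every library, with normalized counts of 62.6, 147 and 62.3 in sh-NC and of 132, 123 and 117 in shRBM10. Only sh-NC replicate 2 exceeded the shRBM10 libraries, and the log2 fold change was 0.47 (interval -0.38 to 1.31, edgeR adjusted p = 0.431). IFNL1, an interferon lambda gene, was also present in both groups (176, 264 and 167 normalized counts in sh-NC against 208, 197 and 288 in shRBM10), with a log2 fold change of 0.20. CCL5 and ISG15 showed the same layout as IFNB1. CCL5 had 496, 1212 and 523 normalized counts against 863, 1029 and 1222, a log2 fold change of 0.48, and ISG15 had 2580, 5449 and 2391 against 3593, 5681 and 5657, a log2 fold change of 0.52. In all 3 genes sh-NC replicate 2 was the highest control library and lay within or above the shRBM10 range. Without that library the log2 fold changes were 0.91 for IFNB1, 0.95 for CCL5 and 0.92 for ISG15, and with the GC trend removed they were -0.06, 0.76 and 1.03. IFNL1 had 0.35 without that library and 0.55 with the GC trend removed, the latter without overlap.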

How the data were processed

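RNA-seq libraries of PC9 cells, 3 with sh-NC and 3 with shRBM10, were compared. The authors deposited estimated counts per gene and per RefSeq transcript, of which 87.5% per gene are whole numbers, and TPM values beside them. The labels name the build hg38, sequencing was done by BGI-Tech, and the aligner, counter and use of strand are not given in the sources used here. The deposited TPM values were used only for levels in sh-NC, and 14 per-library columns of the gene table and 18 of the transcript table were not used. Of the deposited pooled columns, 8 hold group means and were not used.

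Counts were rounded, filtered with filterByExpr, normalized by TMM and tested by edgeR's quasi-likelihood test (edgeR 4.0.16, limma 3.58.1, DESeq2 1.42.0, R 4.3.3), with Benjamini-Hochberg adjustment over the 12620 genes tested. Normalized counts are counts scaled to the mean effective library size. Copies of a transcript on an alternative locus were summed, for all genes. The GC trend was a natural spline (5 degrees of freedom) of each library's log2 CPM deviation (prior count 1), used as an offset, with GC content known for 99.6% of the genes. Scripts were tested on simulated counts. Coordinates are from GENCODE release 29.

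The 8 genes, the lists and the tests were chosen with earlier results of these data known. Named are the 8 genes, RBM10, the 4 genes of each list with the smallest edgeR p, and IFNB1, IFNL1, CXCL10, CCL5 and ISG15. The 3 genes nearest in pattern to STING1 and to CGAS are named too. LRRC8C, IL6, TNF and CXCL8 were added after their values were seen. Transcripts were to be named at a share of 5% or more in either group, but only some of these are given. The minor IRF3 forms named are outside that rule. Of the 6 lists, 116 of 128 genes were tested. Intervals are 95% confidence intervals from the fit. In all, 15 alternatives were planned and 1, the GC trend removed without sh-NC replicate 2, was added after seeing the data. A further promoter motif that was searched is not reported here.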

Additional observations from a re-analysis of the deposited data

How the results depend on the processing

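CGAS, STING1, TBK1, IKBKE, IFI16 and SAMHD1 kept their direction in all 16 alternatives, which were other tools, scalings and filters, the GC trend removed, and each library left out. IRF3 reversed to 0.020 with the GC trend removed, to 0.14 with GC and length trends removed, and to 0.040 with the GC trend removed without sh-NC replicate 2. TREX1 reversed to -0.09 without sh-NC replicate 1 and to -0.11 without shRBM10 library C. The cause was not tested.

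With an adjusted p under 0.05 as the limit, IKBKE passed at a log2 fold change of 0.78 with GC and length trends removed and at 0.73 with the GC trend removed without sh-NC replicate 2. IFI16 passed with DESeq2 (1.65), and SAMHD1 with DESeq2 (0.97) and at 0.63 with the GC trend removed without that library. RBM10 passed with DESeq2 (-1.26), with GC and length trends removed (-0.91) and with the GC trend removed without that library (-1.07). The unadjusted usage p of IRF3 was 0.000681 (edgeR adjusted p 0.0396) for transcripts with at least 10 counts in every library of a group.

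Of the 8 genes, DESeq2 called 1, and the number lower at an unadjusted p under 0.05 was 0 when scaled by library size only and 2 with the GC trend removed without sh-NC replicate 2. In the 6 lists, 13 genes were called with DESeq2, 5 without a filter on low counts, 10 with GC and length trends removed and 13 with the GC trend removed without that library, and those lower at an unadjusted p under 0.05 numbered 5 with upper quartile, 2 with library size only and 15 with the GC trend removed without that library. The number of all genes lower was 914 with upper quartile and 727 with library size only, against 1085 with TMM. Over all genes, 574 were called with DESeq2, 0 with library size only, 31 without a filter, 9 with the GC trend removed, 200 with GC and length trends removed and 260 with the GC trend removed without that library, which gave 1840 lower at an unadjusted p under 0.05. The median of all genes was 0.16 with library size only and 0.12 with GC and length trends removed, against 0.03 with TMM.

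Leaving out each library in turn gave log2 fold changes of -0.72 to -0.50 for CGAS, -0.82 to -0.43 for STING1, 0.80 to 1.52 for TBK1, 0.27 to 0.49 for IKBKE, -0.58 to -0.32 for IRF3, -0.11 to 0.19 for TREX1, 1.39 to 1.92 for IFI16, 0.83 to 1.09 for SAMHD1 and -1.43 to -1.17 for RBM10. Of the 8 genes, 0 were called, 2 to 3 were higher and 0 to 3 lower at an unadjusted p under 0.05. In the 6 lists, 0 to 3 were called, 18 to 35 were higher and 0 to 15 lower, and over all genes 0 to 23 were called, 717 to 2589 were higher and 384 to 2023 lower. Without sh-NC replicate 2, RBM10 had an adjusted p of 0.0487 and 23 genes of all were called. The unadjusted usage p of IRF3 lay between 0.00333 and 0.0478, and its edgeR adjusted p was 0.512 or more in each of these fits. No paired analysis was possible because only replicate number 1 is carried by columns of both groups.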
